A study of Homo sapiens with 9 samples.

Results

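U2OS cells carrying the hairpin shBAP1 #2 were compared with U2OS cells carrying a non-targeting hairpin, shControl, over all genes read by the arrays. U2OS is a human osteosarcoma cell line, and a short hairpin RNA (shRNA) is a transcript that the cell trims into a guide which directs the Argonaute proteins to matching messenger RNAs. The comparison took the 3 arrays titled for shBAP1 #2 and the 3 titled for shControl, 6 of the 9 arrays of the series. The other 3 arrays carry a different hairpin against BAP1, shBAP1 #1. They entered the fit for the estimate of the spread and are set beside shBAP1 #2 where the hairpins differed. In every group, shControl included, plasmids had been delivered by lipofection, cells carrying them had been selected with puromycin, and a double thymidine block had then stopped the cultures where G1 meets S phase. The labels give neither the time after transfection nor the hairpin sequences, and do not state if replicates came from separate cultures or from 1 culture. The p-values therefore measure the spread between these arrays, which may be technical. BAP1 itself was not analysed here, so knockdown was not checked.

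BAP1 is a deubiquitinase of the nucleus that takes ubiquitin off histone H2A, works in complexes with ASXL proteins, HCF-1, FOXK factors and OGT, and is lost in several tumour types. Cells at the G1/S border have loaded the replicative helicase on DNA and wait for nucleotides. Genes of replication are switched on there by E2F factors, while genes of mitosis, which are held down earlier by the DREAM complex, peak later in the cycle.

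Values are log2 expression values of probe sets, so a difference of 1 is a 2-fold change. Each gene was read by 1 probe set, the brightest on average in the 9 arrays among those that name a single gene, which gave 19775 genes. A gene was called changed where its Benjamini-Hochberg adjusted p over all genes was below 0.05 in limma's moderated test, with n = 3 arrays per group and the standard error (SE) taken from the fit. With shBAP1 #2, 6600 genes were called (33.4% of those tested), 3341 higher (16.9%) and 3259 lower (16.5%). Large changes leaned to the lower side. At least 1.5-fold, 1110 genes were higher (5.61%) and 1568 lower (7.93%). At least 2-fold, 318 genes were higher (1.61%) and 577 lower (2.92%), and at least 4-fold 16 were higher (0.0809%) and 27 lower (0.137%). In 8488 genes (42.9%) the 3 shBAP1 #2 arrays did not overlap the 3 shControl arrays, higher in 4504 (22.8%) and lower in 3984 (20.1%). The median change of all genes was 0.02. Every count of list members below is read against these shares, because about 1 gene in 3 was called. With shBAP1 #1 against shControl, 13% of all genes were higher and 12.6% lower. In the direct comparison 17.1% were higher and 17.6% lower with shBAP1 #2 than with shBAP1 #1. Member counts given for those comparisons are read against those shares.

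Replicate 1 of shBAP1 #2 stood between the controls and the other replicates of its group. Its mean correlation with the control arrays was 0.989, against 0.981 to 0.982 for replicates 2 and 3, and arrays within the shBAP1 #2 group correlated at 0.995 to 0.997. At least 2-fold from the control mean were 487 genes in replicate 1, 1176 in replicate 2 and 1220 in replicate 3. Among the 6600 called genes, replicate 1 showed the smallest change of the 3 in 4566 (69.2%), replicate 2 in 948 (14.4%) and replicate 3 in 1086 (16.5%). When replicate 1 took no part in the calls, its change was a median 0.68 of that of replicates 2 and 3, at 0.76 for genes called higher and 0.62 for genes called lower. For replicates 2 and 3, left out in turn, the ratio to the mean of the other replicates was 1.11 and 1.10. That mean includes replicate 1, so its smaller change raises these ratios. Replicate 1 lay on the opposite side of the control mean for 198 of the 6885 genes called without it. Direction was thus mostly shared and size was not. Without replicate 1, 6885 genes were called (34.8%), 3471 higher and 3414 lower. Of the calls with and without it, 6152 were shared in the same direction, 448 were made only with it, 733 only without it, and 0 had opposite signs. In shBAP1 #1 the ratios were 1.06, 0.99 and 0.81.

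The 12 most raised genes belong to no single pathway. ODAPH, named for a protein of developing tooth enamel, stood furthest apart. ODAPH read 6.19, 6.04 and 5.90 in shControl and 10.43, 10.73 and 10.86 in shBAP1 #2. All 3 shBAP1 #2 arrays were more than 4 log2 units above every control. The change was 4.63 (SE 0.14, adjusted p = 1.36e-07). With shBAP1 #1 ODAPH was lower than in the controls, at -0.64, and the hairpins differed by 5.27 (adjusted p = 3.61e-08). PRR9, a proline-rich protein gene, followed. PRR9 read 5.57, 5.88 and 6.07 in shControl and 8.88, 9.54 and 9.72 in shBAP1 #2. Replicate 1 was the lowest of its group and still more than 2 units above the highest control. The change was 3.55 (SE 0.31, adjusted p = 2.31e-05). TOX3 encodes an HMG-box nuclear protein. TOX3 read 4.12, 4.17 and 4.68 in shControl and 7.41, 7.84 and 7.56 in shBAP1 #2. The change was 3.29 (SE 0.15, adjusted p = 1.26e-06), read by a probe set that can match unrelated transcripts.

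BCL2A1, an anti-apoptotic relative of BCL2, rose by 2.54, HPCAL4, of the neuronal calcium sensor family, by 2.47, and CORO2B, an actin-binding coronin, by 2.26. The long noncoding RNA LINC00944 rose by 2.25 and KIRREL3, a cell adhesion protein gene of the nephrin family, by 2.21. The elastase inhibitor gene PI3 is the only one of the 12 in which replicate 1 was highest, since PI3 read 5.94, 5.89 and 6.03 in shControl and 8.48, 7.98 and 7.91 in shBAP1 #2. SLC66A3 rose by 2.09, the protease inhibitor gene SPINK6 by 2.09 and the annexin gene ANXA10 by 2.06. Of the 12, HPCAL4, KIRREL3, PI3 and ANXA10 were not called with shBAP1 #1, ODAPH and LINC00944 were lower with it, and the other 6 were higher with both hairpins.

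Among the 12 most lowered genes, INSIG1 was the most changed. It encodes the sterol-sensing anchor that holds the SREBP transcription factors in the endoplasmic reticulum and is itself an SREBP target. INSIG1 read 8.60, 8.84 and 8.15 in shControl and 5.58, 5.33 and 4.81 in shBAP1 #2. All 3 replicates were far below every control, with replicate 1 the highest of them. The change was -3.29 (SE 0.21, adjusted p = 4.89e-06), while shBAP1 #1 raised INSIG1 by 0.99, and the hairpins differed by -4.28 (adjusted p = 1.08e-06). Both further probe sets of INSIG1 were called lower as well. The meiotic recombination gene SHOC1 fell by 2.79. Replicate 1 was the highest of its group there, at 5.43, against 4.47 and 4.34.

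MAPRE1 encodes EB1, which rides on growing microtubule plus ends. MAPRE1 read 11.49, 11.36 and 11.37 in shControl and 9.68, 8.24 and 8.12 in shBAP1 #2. Replicate 1 lay more than 1 unit above replicates 2 and 3 and more than 1 below every control. The change was -2.73 (SE 0.32, adjusted p = 1.07e-04). With shBAP1 #1 the change was -0.01 (adjusted p = 0.991), and the hairpins differed by -2.72 (adjusted p = 8.58e-05). MCUR1, a regulator of the mitochondrial calcium uniporter, had the same shape, as MCUR1 read 10.34, 10.30 and 10.34 in shControl and 8.65, 7.66 and 7.70 in shBAP1 #2. Its change was -2.32 (SE 0.21, adjusted p = 2.66e-05). ARHGDIB fell by 2.64, and SLC40A1, the iron exporter ferroportin, fell by 2.31. The coiled-coil gene MNS1, of motile cilia and sperm tails, fell by 2.44 and spread widely, at 6.01, 4.18 and 4.93. MAPRE1, MCUR1, ARHGDIB, SLC40A1, MNS1 and SHOC1 were not called with shBAP1 #1, and each differed between the hairpins.

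CNN1, the smooth muscle calponin, changed to a similar size in all replicates. CNN1 read 8.80, 8.84 and 8.74 in shControl and 6.12, 5.99 and 6.29 in shBAP1 #2. The change was -2.66 (SE 0.09, adjusted p = 1.68e-07). CRYAB, a small heat shock protein, fell by 2.54. PDGFRA, which encodes a PDGF receptor, fell by 2.49 to a narrow range. PDGFRA read 7.92, 8.71 and 7.29 in shControl and 5.51, 5.39 and 5.54 in shBAP1 #2. The controls spread over more than 1 unit and the shBAP1 #2 arrays lay close together, near the level of the median probe set (5.44). CCNE2 and the exonuclease gene EXO1 complete the 12 and are described with the cell cycle. CNN1, CRYAB, PDGFRA and CCNE2 were called lower with shBAP1 #1 too, at -2.03, -1.38, -2.35 and -2.46. EXO1 was not called with shBAP1 #1 (-0.78, adjusted p = 0.172), and the hairpins differed by -1.56 (adjusted p = 0.00748). For all 24 genes the groups do not overlap, which the rule that chose them fixed. All controls of TOX3, HPCAL4 and SPINK6 lay below the level of the median probe set, as did all shBAP1 #2 arrays of SHOC1. So did replicates 2 and 3 of shBAP1 #2 in INSIG1 and MNS1. The sizes of these changes are less certain for that.

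**Figure D1:**
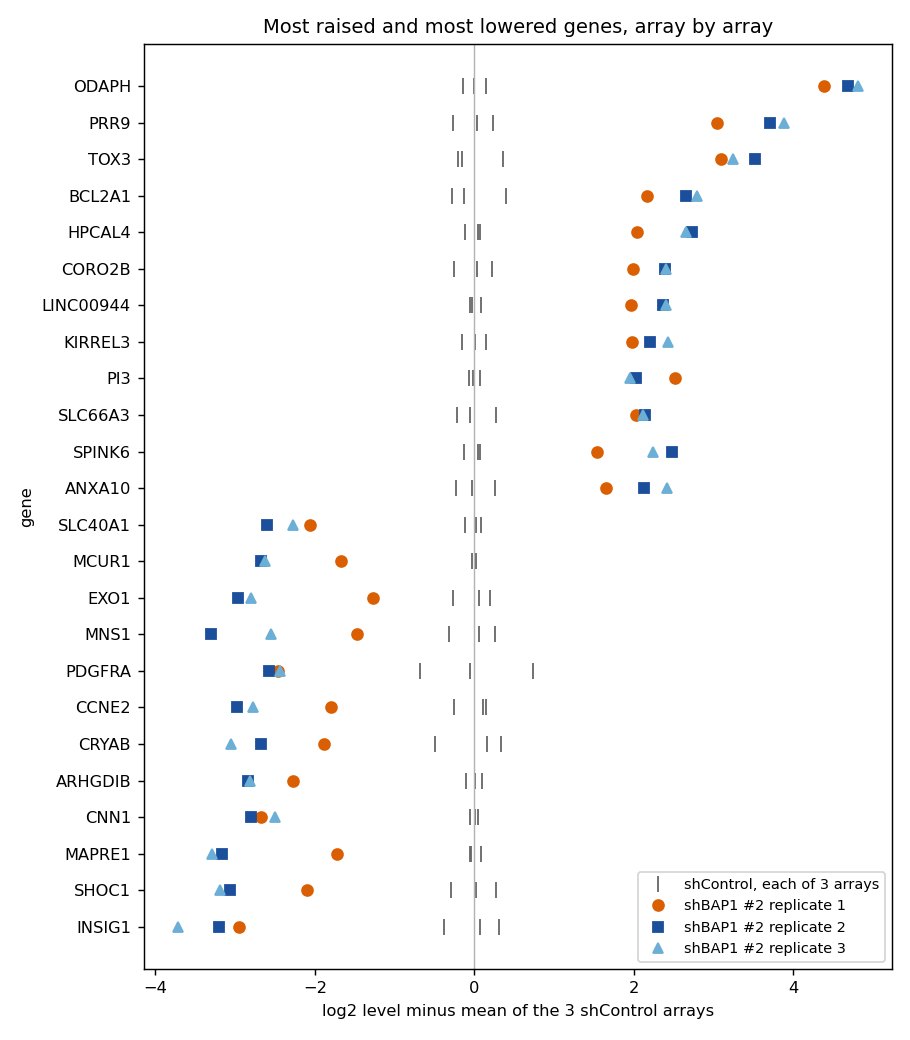
Each row is 1 of the 24 most changed genes and each symbol 1 array, plotted as its log2 level minus the mean of the 3 shControl arrays. Orange circles are replicate 1 of shBAP1 #2, dark squares replicate 2, light triangles replicate 3, and grey bars the controls. MAPRE1, EXO1, CCNE2, MCUR1 and MNS1 show replicate 1 well short of replicates 2 and 3, while CNN1, PDGFRA and SLC66A3 do not.

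Genes of the G1/S transition changed both ways. Of 31 measured members 14 were lower (45.2%, against 16.5% of all genes) and 7 higher (22.6%, against 16.9%), with a list median of -0.18. Cyclin E2, CCNE2, partners CDK2 at S phase entry. CCNE2 read 10.02, 9.61 and 9.98 in shControl and 8.08, 6.89 and 7.10 in shBAP1 #2. Replicate 1 lay about 1 unit above the other shBAP1 #2 arrays and more than 1 below the lowest control. The change was -2.51 (SE 0.28, adjusted p = 7.52e-05). SKP2, which marks the inhibitor p27 for destruction, fell by 1.84, and the repressor E2F8, itself made in S phase, by 1.72. E2F5, a repressor of quiescent cells, went the other way. E2F5 read 5.60, 6.25 and 5.77 in shControl and 7.79, 7.82 and 8.02 in shBAP1 #2. All 3 replicates lie more than 1 unit above every control, and the change was 2.000 (SE 0.14, adjusted p = 7.35e-06).

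Origin licensing and helicase genes were lowered almost as a block. Of 27 members 26 were lower (96.3%) and 0 higher, with a median of -0.88. The medians were -0.64, -1.01 and -1.05 in replicates 1, 2 and 3 and 0.06, -0.11 and 0.06 in the controls. GINS4, a subunit of the GINS ring of the helicase, had the largest change. GINS4 read 10.20, 10.01 and 10.29 in shControl and 8.31, 7.82 and 7.72 in shBAP1 #2. MCM6 belongs to the MCM ring itself. MCM6 read 11.78, 11.65 and 11.60 in shControl and 10.14, 9.40 and 9.38 in shBAP1 #2. CDC45, which joins both into the active helicase, fell by 1.69. In these genes replicate 1 had moved well below the controls and stopped short of the others. The changes of GINS4 and MCM6 were -2.22 (SE 0.28, adjusted p = 1.77e-04) and -2.04 (SE 0.18, adjusted p = 2.30e-05). MCM6 differed between the hairpins by -1.43 (adjusted p = 1.29e-04).

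Replication fork genes followed, with 31 of 34 lower (91.2%) and 0 higher, and a median of -0.75. WDHD1, which couples polymerase alpha to the helicase, fell by 1.92. UHRF1, which guides maintenance methylation behind the fork, fell by 1.78, and the fork protection gene TIMELESS by 1.77. TIMELESS read 9.64, 9.53 and 9.72 in shControl and 8.39, 7.69 and 7.50 in shBAP1 #2. UHRF1 and TIMELESS were not called with shBAP1 #1 (-0.31 and -0.19), and each differed between the hairpins (adjusted p = 6.53e-04 and 1.34e-04), whereas WDHD1 fell with both.

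Promoters of these members were searched for the letters of the E2F motif. The lists and the motif were chosen with earlier results of these data known, so the shares are a description only. Promoters from RefSeq (GRCh38.p14, 250 bases before to 50 after the start) were found for 23 of the 27 licensing genes and 30 of the 34 fork genes. The E2F letters TTCCCGC or TTGGCGC, on either strand, lay in 13 of 23 licensing promoters (56.5%) and 17 of 30 fork promoters (56.7%). They lay in 12.2% of the promoters of all genes tested and 9.33% of all promoters in the table. Among called genes the share was 18.6% for lower and 11.7% for higher genes, and it was 10.6% for genes not called. A match is a description of the letters, not a bound site. POLE2, the second subunit of polymerase epsilon, and GINS1, of the GINS ring, are shown as members of the 2 lists that hold the motif, 220 bases before to 30 after the start on the gene's strand, with the match in capitals. POLE2 lies at chr14:49688185-49688434 on the minus strand and GINS1 at chr20:25407453-25407702 on the plus strand. Both were chosen after their values were seen.
POLE2: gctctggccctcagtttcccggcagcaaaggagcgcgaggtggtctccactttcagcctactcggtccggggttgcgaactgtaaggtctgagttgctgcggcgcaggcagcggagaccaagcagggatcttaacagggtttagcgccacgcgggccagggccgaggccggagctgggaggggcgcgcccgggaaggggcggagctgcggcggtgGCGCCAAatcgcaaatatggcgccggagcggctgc
GINS1: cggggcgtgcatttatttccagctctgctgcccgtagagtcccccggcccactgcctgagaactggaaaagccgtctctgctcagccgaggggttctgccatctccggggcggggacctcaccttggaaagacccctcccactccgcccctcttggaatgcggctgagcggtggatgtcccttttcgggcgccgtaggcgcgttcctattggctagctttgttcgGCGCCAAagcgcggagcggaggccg

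POLE2 read 10.73, 10.61 and 10.73 in shControl and 9.54, 8.80 and 8.85 in shBAP1 #2. GINS1 read 10.42, 10.26 and 10.44 in shControl and 9.66, 9.38 and 9.09 in shBAP1 #2. Both are below every control in all 3 shBAP1 #2 arrays, replicate 1 least. POLE2 changed by -1.63 (SE 0.17, adjusted p = 6.25e-05) and GINS1 by -0.997 (SE 0.17, adjusted p = 0.00103). Neither differed detectably between the hairpins (adjusted p = 0.229 and 0.517 for differences of -0.30 and 0.17).

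Deoxynucleotide synthesis genes were lower in 11 of 15 and higher in 2, with a median of -0.34. RRM2, the S phase subunit of ribonucleotide reductase, changed most. RRM2 read 13.16, 12.91 and 13.13 in shControl and 12.05, 11.02 and 10.90 in shBAP1 #2. It fell by 1.74 here and was not called with shBAP1 #1 (0.09), a difference of -1.83 (adjusted p = 3.35e-04). The thymidylate kinase gene DTYMK fell by 1.13 and the thymidine kinase gene TK1 by 0.92. RRM2B, the p53-controlled alternative to RRM2, rose by 0.78. Leaving out single arrays, the higher count of 2 for deoxynucleotide synthesis was 1 without shBAP1 #2 replicate 2 or shControl replicate 2, and the lower count of 11 for deoxynucleotide synthesis was 6 without shBAP1 #2 replicate 2, and 7 without shBAP1 #2 replicate 3 or shControl replicate 1 or 3.

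**Figure D2:**
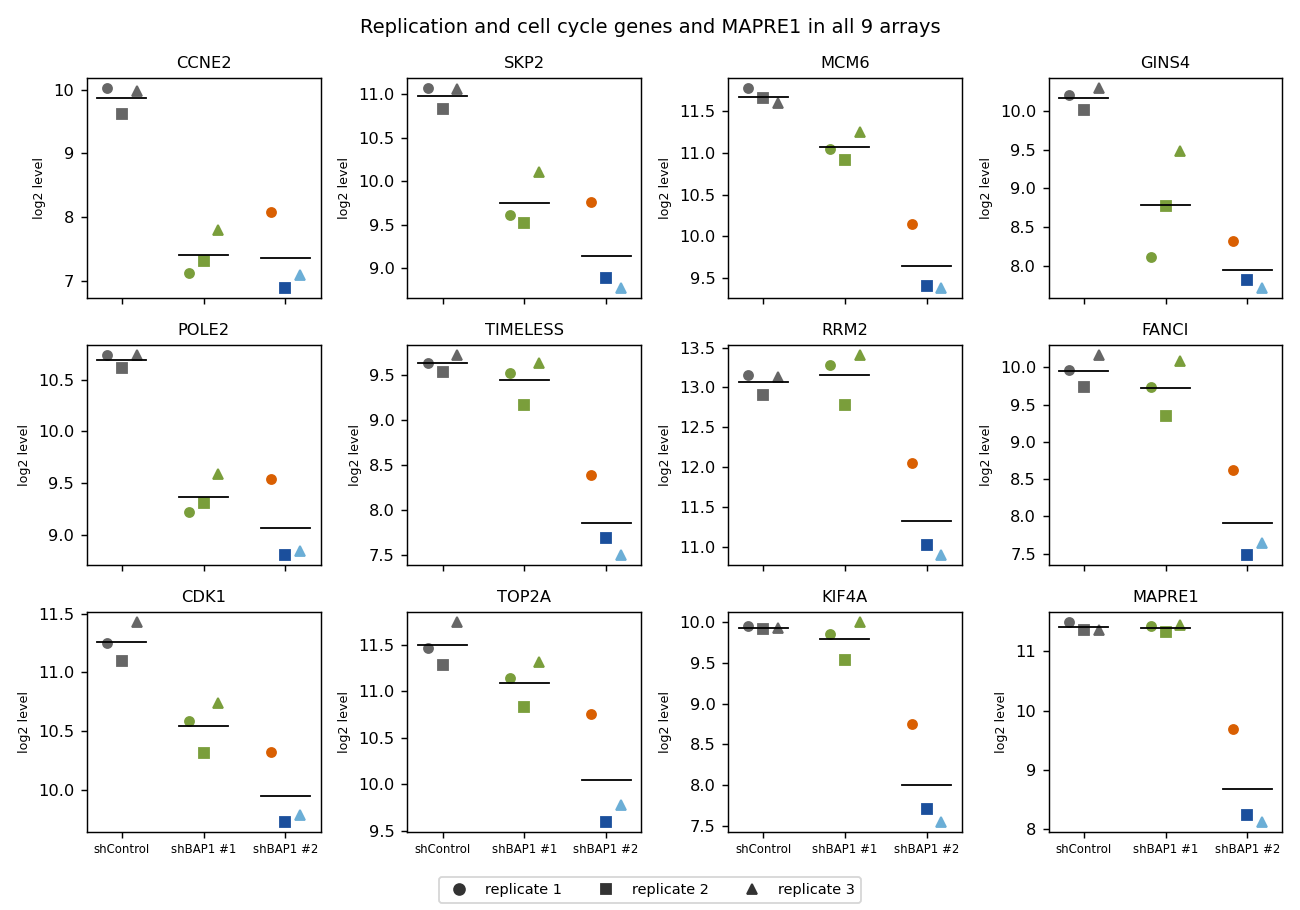
Log2 levels of 12 genes in all 9 arrays, by group, with replicate 1 as a circle, 2 as a square and 3 as a triangle, and a line at the group mean. In each panel replicate 1 of shBAP1 #2 lies between the controls and replicates 2 and 3. RRM2, TIMELESS, KIF4A and MAPRE1 show shBAP1 #1 near the controls, while CCNE2 and POLE2 show both hairpins low.

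Genes of G2 and mitosis gave the longest run of lowered members. Of 73 measured, 66 were lower (90.4%), 0 higher and 7 not called, with a median of -1.08. Replicate medians were -0.60, -1.35 and -1.25, smallest in replicate 1. In arrays of whole cultures, fewer cells in a stage of the cycle and less of these messages per cell cannot be told apart. KIF4A, a motor protein of the anaphase spindle, had the largest change. KIF4A read 9.95, 9.92 and 9.93 in shControl and 8.75, 7.70 and 7.55 in shBAP1 #2. The change was -1.93 (SE 0.25, adjusted p = 2.12e-04). The spindle assembly gene HMMR fell by 1.89 and the proliferation marker MKI67 fell by 1.88. All 3 further probe sets of MKI67 were called lower too. With shBAP1 #1, 15 members of the list were lower and 3 higher, with a median of -0.22. In the direct comparison 57 of 73 were lower with shBAP1 #2 than with shBAP1 #1 and 0 higher.

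The CHR letters TTTGAA, an element of late cell cycle promoters, lay on either strand in 42 of the 64 promoters found for this list (65.6%). They lay in 11.9% of promoters of genes tested and 15.4% of all promoters. CCAAT, often its neighbour, lay in 46 of the 64 (71.9%), against 36.1% of genes tested. Its share was higher still in some other lists, such as endoplasmic reticulum chaperones (90.9%) and histones (76%). CDK1, the mitotic kinase at chr10:60778111-60778360 on the plus strand, and TOP2A, the chromosome-untangling topoisomerase at chr17:40417867-40418116 on the minus strand, are shown as members with the CHR letters in capitals. The window and build are those given for POLE2, and both genes were chosen after their values were seen.
CDK1: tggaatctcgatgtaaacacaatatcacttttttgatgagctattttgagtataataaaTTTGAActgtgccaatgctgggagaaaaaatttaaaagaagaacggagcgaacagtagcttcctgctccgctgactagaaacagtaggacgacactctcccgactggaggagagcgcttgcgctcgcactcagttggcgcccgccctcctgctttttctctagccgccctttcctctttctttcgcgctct
TOP2A: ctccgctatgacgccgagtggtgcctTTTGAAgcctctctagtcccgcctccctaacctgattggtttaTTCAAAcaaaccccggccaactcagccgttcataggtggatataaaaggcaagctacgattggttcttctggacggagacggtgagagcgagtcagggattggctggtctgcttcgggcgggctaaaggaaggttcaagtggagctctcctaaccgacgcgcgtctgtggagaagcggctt

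CDK1 read 11.25, 11.10 and 11.43 in shControl and 10.32, 9.73 and 9.78 in shBAP1 #2. TOP2A read 11.46, 11.29 and 11.74 in shControl and 10.76, 9.60 and 9.78 in shBAP1 #2. In TOP2A replicate 1 had gone less than 1 unit below the control mean and the others close to 2. CDK1 changed by -1.31 (SE 0.16, adjusted p = 1.50e-04) and TOP2A by -1.45 (SE 0.26, adjusted p = 0.00143). Each differed between the hairpins, by -0.60 (adjusted p = 0.0142) and -1.05 (adjusted p = 0.00901).

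DNA repair genes tied to replication were lowered as well. In homologous recombination and checkpoint signalling 23 of 33 were lower (69.7%) and 0 higher, with a median of -0.67. EXO1 resects DNA ends. EXO1 read 9.82, 9.49 and 9.96 in shControl and 8.48, 6.80 and 6.95 in shBAP1 #2. Replicate 1 lay more than 1 unit above the others and about 1 below the lowest control. EXO1 changed by -2.35 (SE 0.37, adjusted p = 7.04e-04). The BRCA1-associated helicase gene BRIP1 fell by 1.39. Of the Fanconi anaemia genes, which repair crosslinks between DNA strands, 11 of 14 were lower and 2 higher. FANCI, of the complex that is ubiquitinated at crosslinks, fell by 2.04, FANCG by 1.68 and USP1, the enzyme that reverses this ubiquitination, by 1.38. FANCF rose by 0.95, and by 0.98 with shBAP1 #1.

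Targets of p53 rose in 17 of 33 measured members (51.5%, against 16.9% of all genes) and fell in 3, with a median of 0.33. TP53INP1, which supports p53 activity, led. TP53INP1 read 7.91, 8.03 and 7.65 in shControl and 9.25, 9.66 and 9.70 in shBAP1 #2. TNFRSF10B, the death receptor DR5, was nearly as far apart. TNFRSF10B read 9.14, 9.07 and 9.07 in shControl and 10.47, 10.69 and 10.78 in shBAP1 #2. Every shBAP1 #2 array lies above every control in both. The changes were 1.67 (SE 0.14, adjusted p = 1.52e-05) and 1.55 (SE 0.08, adjusted p = 2.25e-06). The stress gene GADD45A rose by 1.19, and STEAP3, a metalloreductase of iron uptake, fell by 1.15. In single fits, the lower count of 3 for p53 targets was 1 without shBAP1 #2 replicate 3 or shControl replicate 1 or 3. TNFRSF10B and GADD45A rose more than with shBAP1 #1, by 0.46 and 0.65 (adjusted p = 0.00147 and 0.00341).

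In the BCL2 family and caspases 10 of 28 were higher and 5 lower, and they do not share 1 role. Besides the survival gene BCL2A1, the pore-forming death gene BAK1 rose by 0.86 and CFLAR, an inhibitor of caspase 8 activation, by 0.85. BCL2L11, the death activator BIM, fell by 0.94, and 5 of its 6 further probe sets were called lower. With 1 array left out, the lower count of 5 for BCL2 family and caspases was 3 without shBAP1 #2 replicate 3 or shControl replicate 1 or 3.

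Targets of NRF2, the factor that raises antioxidant and detoxifying enzymes, rose in 21 of 30 (70%, against 16.9% of all genes) and fell in 4, with a median of 0.44. Replicate 1 changed least in this list too, at list medians of 0.34, 0.40 and 0.47 in replicates 1, 2 and 3. SQSTM1, the p62 scaffold that also releases NRF2 from KEAP1, led. SQSTM1 read 10.51, 10.80 and 10.39 in shControl and 11.89, 12.18 and 12.19 in shBAP1 #2. SRXN1 encodes sulfiredoxin, which repairs overoxidised peroxiredoxins. SRXN1 read 9.996, 9.93 and 10.03 in shControl and 11.19, 11.23 and 11.27 in shBAP1 #2. Its 3 replicates lie close together, more than 1 unit above every control. The changes of SQSTM1 and SRXN1 were 1.52 (SE 0.11, adjusted p = 8.82e-06) and 1.24 (SE 0.07, adjusted p = 2.22e-06). The aldo-keto reductase gene AKR1C2 rose by 1.11 and is read by probes that match other transcripts too.

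The most lowered member was PRDX1, a peroxiredoxin. PRDX1 read 13.60, 13.54 and 13.52 in shControl and 12.91, 12.19 and 12.17 in shBAP1 #2. It fell by 1.13, with replicate 1 at less than 1 unit below the controls and the others at more than 1. With shBAP1 #1 the NRF2 list leaned the opposite way, 2 higher and 15 lower, at a median of -0.19. SQSTM1 changed by -1.09 there and differed between the hairpins by 2.61 (adjusted p = 8.31e-07), and SRXN1 by 1.27 (adjusted p = 1.18e-06). In the direct comparison 23 members were higher with shBAP1 #2 and 3 lower. The antioxidant response letters TGAC and GC, set apart by any 3 bases, lay in 6 of 24 promoters of the list (25%) and in 14.8% of those of genes tested. Some other lists had higher shares, such as lysosome (38.1%), proteasome (33.3%) and ATF4 response (32%) genes, so the letters do not set this list apart.

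Lysosome genes rose in 16 of 30 and fell in 2, with a median of 0.27. TPP1, a lysosomal peptidase, showed a tight shift. TPP1 read 8.70, 8.66 and 8.66 in shControl and 9.99, 9.99 and 10.03 in shBAP1 #2. The membrane protein gene LAMP2 rose by 0.95 and the cathepsin gene CTSB by 0.88, and all 4 further probe sets of CTSB were called higher. ATP6V1A, the catalytic subunit of the proton pump, fell by 1.32. TPP1 changed by 1.33 (SE 0.06, adjusted p = 1.65e-06). CTSB was not called with shBAP1 #1 (-0.05), and the hairpins differed by 0.93 (adjusted p = 3.14e-06). Autophagy genes rose in 15 of 33 and fell in 7. After SQSTM1 came ATG13, of the initiating kinase complex, at 0.93, and WIPI1, which marks forming autophagosomes, at 0.92. ATG3, which conjugates lipid to LC3, fell by 0.88. With shBAP1 #1, 3 autophagy genes were higher and 8 lower of 33, against 13% and 12.6% of all genes.

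Cholesterol synthesis and SREBP genes were lower in 10 of 22 and higher in 2, with a median of -0.23. HMGCS1, which makes the precursor of mevalonate, followed INSIG1. HMGCS1 read 10.17, 9.93 and 9.49 in shControl and 8.24, 8.24 and 7.46 in shBAP1 #2. EBP encodes a sterol isomerase of the same route. EBP read 10.10, 10.20 and 10.02 in shControl and 8.92, 8.86 and 8.77 in shBAP1 #2. Neither gene overlaps its controls, and in HMGCS1 replicate 3 is the lowest. Their changes were -1.88 (SE 0.26, adjusted p = 3.24e-04) and -1.26 (SE 0.09, adjusted p = 6.26e-06). INSIG2, the partner of INSIG1 that SREBP does not drive, rose by 0.30. The call of INSIG2 was lost without shBAP1 #1 replicate 2, shBAP1 #2 replicate 1 or 2 or shControl replicate 1, 2 or 3 and with the replicate block, at log2 changes of 0.21 to 0.32. Among fits of 8 arrays, the higher count of 2 for cholesterol synthesis and SREBP was 0 without shBAP1 #2 replicate 1 or 2 or shControl replicate 1 or 2, and 1 without shBAP1 #1 replicate 2 or shControl replicate 3. With shBAP1 #1 the list leaned the other way, 12 higher and 3 lower, at a median of 0.42, and 17 members were lower with shBAP1 #2 than with shBAP1 #1. Fatty acid genes were mixed, 4 higher and 5 lower of 14. The elongase gene ELOVL6 fell by 0.94, the desaturase genes SCD5 by 0.76 and SCD by 0.46, and ACSL1, which activates fatty acids, rose by 0.82.

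Collagen genes rose in 12 of 27 and fell in 3, with a median of 0.27. COL22A1, of tissue junctions, rose by 1.67, COL5A1, a fibril-nucleating chain, by 1.03 and COL6A2, of pericellular filaments, by 0.90. The transmembrane collagen gene COL13A1 fell by 0.67. Of the other matrix genes 19 of 44 rose and 9 fell. LOXL1 and LOX crosslink elastin and collagen. LOXL1 read 7.77, 7.46 and 7.73 in shControl and 9.48, 9.79 and 9.60 in shBAP1 #2. LOX read 8.51, 7.96 and 8.56 in shControl and 9.97, 9.98 and 10.09 in shBAP1 #2. Both are above the controls in every array, at 1.97 (SE 0.13, adjusted p = 5.30e-06) and 1.67 (SE 0.15, adjusted p = 2.30e-05). The microfibril gene MFAP5 rose by 1.93. PLOD1, which hydroxylates collagen lysines, fell by 1.47, replicate 1 least. LOXL1 rose by 1.46 more than with shBAP1 #1 (adjusted p = 1.59e-05), and the difference for LOX was -0.11 (adjusted p = 0.619).

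Metalloproteinases and their inhibitors rose in 16 of 38 and fell in 5. ADAM19 rose by 1.80, and its 1 further probe set was not called. ADAM12, another membrane protease of mesenchymal cells, rose by 1.51, with all 4 of its further probe sets called higher. The procollagen peptidase gene ADAMTS3 fell by 1.85. In the contractile cytoskeleton 11 of 26 rose and 5 fell, and the list split within smooth muscle genes. ACTA2, smooth muscle actin, was higher on its brightest probe set. ACTA2 read 7.73, 7.67 and 7.59 in shControl and 8.73, 8.73 and 8.73 in shBAP1 #2. The change was 1.07 (SE 0.12, adjusted p = 6.38e-05), and neither of the 2 further probe sets of ACTA2 was called. The deposited value is identical in all 3 shBAP1 #2 arrays, as it is in 108 of the genes tested, so the spread of that group is listed at 0. CNN1 fell as described. CSRP1, a LIM protein of actin bundles, rose by 0.98, and CNN2, a calponin found outside smooth muscle, by 0.74.

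Integrin and focal adhesion genes rose in 15 of 35 and fell in 6, with a median of 0.21 and replicate medians of 0.21, 0.24 and 0.19. ITGA2, a collagen-binding integrin chain, rose by 1.29 and the adaptor gene PXN by 1.01. FERMT2, an integrin activator, separated the hairpins. FERMT2 read 10.85, 10.78 and 10.63 in shControl and 11.36, 11.69 and 11.88 in shBAP1 #2. It rose by 0.89, changed by -1.10 with shBAP1 #1, and differed by 1.99 (adjusted p = 4.49e-06). TNS3 fell by 1.28, but 1 further probe set of it was called higher, so its direction depends on the probe set.

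TGF-beta and BMP genes showed no lean as a list, 10 higher and 7 lower of 34, at a median of -0.01. The activin subunit gene INHBA rose by 1.92, BMP2 by 1.02 and the feedback inhibitor SMAD7 by 0.75. ID4, an inhibitor of helix-loop-helix factors, fell by 1.47 and rose with shBAP1 #1 by 0.97. ID4 read 7.69, 7.78 and 7.69 in shControl and 6.66, 6.11 and 5.97 in shBAP1 #2. The hairpins differed by -2.44 (adjusted p = 2.60e-06), and replicate 1 was again nearest to the controls. YAP and TEAD genes gave 11 higher and 10 lower of 28. By left-out array, the lower count of 10 for YAP and TEAD targets was 6 without shControl replicate 1. WWTR1, the YAP relative TAZ, fell sharply. WWTR1 read 8.29, 8.21 and 8.23 in shControl and 7.30, 6.10 and 6.33 in shBAP1 #2. Replicate 1 lay 1 unit above the other 2 arrays. The change was -1.67 (SE 0.24, adjusted p = 3.59e-04), against 0.28 with shBAP1 #1 (adjusted p = 0.476). RBMS3 rose by 1.01, but none of its 6 further probe sets was called. The kinase gene STK3, of the Hippo pathway, rose by 0.67, and its 1 further probe set was not called either.

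Immediate early genes rose in 10 of 24 and fell in 3. The zinc finger gene KLF6 rose most. KLF6 read 8.53, 8.99 and 8.19 in shControl and 10.08, 10.40 and 10.49 in shBAP1 #2. All controls lay below 9 and all shBAP1 #2 arrays above 10, a change of 1.75 (SE 0.19, adjusted p = 6.34e-05). The AP-1 genes FOSL2 and JUNB rose by 0.66 and 0.57, and JUND, also of AP-1, fell by 0.80. Among ERK feedback and growth factor genes 11 of 45 rose and 5 fell. Leaving out single arrays, the higher count of 11 for ERK feedback and growth factor signalling was 7 without shBAP1 #2 replicate 2, and the lower count of 5 for ERK feedback and growth factor signalling was 8 without shBAP1 #2 replicate 1. The ligand genes PDGFD, whose controls all lay below the level of the median probe set (5.44), and VEGFC rose by 1.61 and 1.51. The receptor gene FGFR1 rose evenly. FGFR1 read 8.08, 7.997 and 8.07 in shControl and 9.30, 9.42 and 9.40 in shBAP1 #2. FGFR1 changed by 1.33 (SE 0.06, adjusted p = 1.35e-06), against 0.23 with shBAP1 #1, and the hairpins differed by 1.09 (adjusted p = 1.75e-06). Receptors of the list thus went both ways, FGFR1 up and PDGFRA down.

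NF-kappaB and cytokine genes rose in 17 of 35 (48.6%, against 16.9% of all genes) and fell in 2, with a median of 0.21. The leading members are inhibitors and a subunit of NF-kappaB that are themselves its targets. NFKBIA read 9.42, 9.46 and 9.26 in shControl and 10.50, 10.68 and 10.66 in shBAP1 #2. Its change was 1.24 (SE 0.09, adjusted p = 8.17e-06), and 1 further probe set of NFKBIA was not called. The related inhibitor NFKBIE rose by 1.05 and the subunit gene RELB by 0.95. These 3 were not called with shBAP1 #1 (-0.06, -0.19 and 0.17) and differed between the hairpins at adjusted p = 4.52e-06, 2.28e-05 and 3.52e-05. IL24, a cytokine of the IL-10 family, fell by 1.06. The call of IL24 was lost without shBAP1 #2 replicate 2 or 3 or shControl replicate 2, at log2 changes of -1.09 to -0.78. In single fits, the lower count of 2 for NF-kappaB and cytokines was 1 without shBAP1 #2 replicate 3, and 4 without shBAP1 #1 replicate 1 or 2. Without the 8 members whose mean lies below the median of all probe sets, the list median was 0.45.

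Interferon-stimulated genes showed little, 3 higher and 5 lower of 35, of which 12 were dim. IFIT2 and IFI44 were lower against controls that scattered. IFIT2 read 7.07, 8.85 and 6.81 in shControl and 6.21, 6.36 and 6.27 in shBAP1 #2. Control replicate 2 stands more than 1 unit above the other controls, and the change was -1.30 (SE 0.41, adjusted p = 0.0303). The call of IFIT2 was lost without shBAP1 #2 replicate 1, 2 or 3, with the mean of its probe sets and in the fit of the 6 arrays alone, at log2 changes of -1.34 to -0.99. IFI44 fell by 0.96 and IRF9, of the interferon signalling complex, by 0.86, while IFIT5 rose by 0.99. With 1 array left out, the lower count of 5 for interferon-stimulated genes was 3 without shBAP1 #2 replicate 3.

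Stress lists other than NRF2 were divided, except that aminoacyl-tRNA synthetase genes leaned lower. In the ATF4 response 6 of 30 were higher and 8 lower. MTHFD2, of mitochondrial folate metabolism, fell by 1.52, the mTOR inhibitor gene DDIT4 by 1.34 and CEBPG by 1.26, with replicate 1 least changed in all 3. PPP1R15A, which reverses the block on translation initiation, rose by 1.21. Among fits of 8 arrays, the lower count of 8 for ATF4 response and amino acid supply was 5 without shBAP1 #2 replicate 2 or 3 or shControl replicate 3. Aminoacyl-tRNA synthetase genes gave 1 higher and 6 lower of 17, with AARS1 at -0.90, LARS1 at -0.70 and FARSB at -0.41. The higher member was HARS1 at 0.24. The call of HARS1 was lost without shBAP1 #2 replicate 2 or 3 or shControl replicate 1, at log2 changes of 0.23 to 0.24. By left-out array, the higher count of 1 for aminoacyl-tRNA synthetases was 0 without shBAP1 #2 replicate 2 or 3 or shControl replicate 1. In the endoplasmic reticulum 5 of 25 rose and 8 fell. EIF2AK3, the stress sensor PERK, fell by 1.16, PDIA4 by 0.66 and DNAJC3 by 0.63, while the other sensor ERN1, IRE1, rose by 0.52. Cytosolic chaperones gave 5 higher and 4 lower of 23. HSF1, the heat shock factor, rose by 1.11, HSPH1 by 0.37 and DNAJA1 by 0.33, against the fall of CRYAB.

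Energy metabolism lists stayed near the background. Glycolysis and hypoxia genes gave 7 higher and 7 lower of 35, respiratory complexes I and II 8 and 7 of 36, complexes III to V 9 and 7 of 41, and the tricarboxylic acid cycle 2 and 4 of 20. All 4 list medians lay between -0.02 and 0.01. Among their members the hexokinase gene HK1 rose by 0.75, and ALDOC and PFKFB3 fell by 0.58 and 0.56. In complex I, NDUFA1 rose by 0.71, NDUFS4 by 0.48 and NDUFA10 by 0.52, and NDUFA6 fell by 0.90. The call of NDUFA10 was lost with the mean of its probe sets, at a log2 change of 0.15. SCO1, SCO2 and COX10, which assemble cytochrome c oxidase, rose by 0.61, 0.33 and 0.35, and UQCRC2 of complex III fell by 0.90. Of the cycle's enzymes IDH2 fell by 0.84 and SUCLG2 by 0.44, OGDH rose by 0.71, and PC, which feeds the cycle with oxaloacetate, fell by 0.30. The call of PC was lost without shBAP1 #1 replicate 2, shBAP1 #2 replicate 1 or 2 or shControl replicate 1 or 3, in the fit of the 6 arrays alone and with the replicate block, at log2 changes of -0.33 to -0.21. Leaving out single arrays, the higher count of 7 for glycolysis and hypoxia was 4 without shBAP1 #2 replicate 3. In single fits, the lower count of 7 for respiratory complexes I and II was 4 without shBAP1 #2 replicate 3. With 1 array left out, the higher count of 9 for respiratory complexes III to V was 5 without shBAP1 #2 replicate 2 or 3. Among fits of 8 arrays, the lower count of 4 for tricarboxylic acid cycle was 2 without shBAP1 #1 replicate 2, shBAP1 #2 replicate 1 or shControl replicate 1 or 3.

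Mitochondrial ribosomal protein genes held large changes on both sides. Of 70 mitochondrial members 13 were higher and 25 lower (18.6% and 35.7%), at a list median of -0.04. MRPL24 was the most lowered. MRPL24 read 10.66, 10.53 and 10.69 in shControl and 9.50, 8.35 and 8.28 in shBAP1 #2. MRPS10 fell by 1.90 and MRPL18 by 1.75, and MRPL45 rose. MRPL45 read 8.52, 8.44 and 8.70 in shControl and 9.82, 10.07 and 9.97 in shBAP1 #2. In the lowered genes replicate 1 stops about 1 unit short of the others, and in MRPL45 it lies near them. MRPL24, MRPS10 and MRPL18 were not called with shBAP1 #1 (-0.22, -0.28 and -0.02) and differed between the hairpins (adjusted p = 4.34e-04, 1.92e-04 and 6.23e-05). By left-out array, the higher count of 13 for mitochondrial ribosomal proteins was 7 without shControl replicate 1.

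Cytosolic ribosomal protein genes, all bright probe sets save 1, gave 1 higher and 6 lower of 50, fewer than the background share. RPL36 fell by 0.78, at 11.47, 10.69 and 10.67 against controls of 11.70 to 11.75. RPL10A fell by 0.32 and RPL12 by 0.25, and RPL18 rose by 0.23. The call of RPL18 was lost with the mean of its probe sets, at a log2 change of 0.16. Leaving out single arrays, the lower count of 6 for cytosolic ribosomal proteins was 3 without shBAP1 #2 replicate 3 or shControl replicate 2. Ribosome biogenesis genes gave 10 higher and 8 lower of 34. The RNA polymerase I factor gene RRN3 rose by 1.29, RRP12 by 1.02 and RRS1 by 0.96, while the nucleolar chaperone gene NOLC1 fell by 1.54. Proteasome genes gave 10 higher and 6 lower of 38, with PSMC1, PSMB5 and PSMD2 at 0.88, 0.80 and 0.68 and PSMD11 at -0.75. In single fits, the higher count of 10 for proteasome was 6 without shBAP1 #2 replicate 2 or shControl replicate 1 or 2.

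Splicing factors of the SR and hnRNP families fell in 20 of 34 (58.8%, against 16.5% of all genes) and rose in 1, with a median of -0.30 and replicate medians of -0.21, -0.36 and -0.31. HNRNPM fell most. HNRNPM read 11.94, 11.84 and 11.85 in shControl and 11.30, 10.63 and 10.68 in shBAP1 #2. The change was -1.01 (SE 0.15, adjusted p = 4.35e-04), but only 1 of its 6 further probe sets was called lower. HNRNPD and SRSF6 fell by 0.68 each, and HNRNPA0 rose by 0.71. Nuclear pore and lamina genes fell in 21 of 38 (55.3%) and rose in 5. The pore gene NUP43 fell by 1.22 and the lamin gene LMNB1 by 1.18, and LBR, which tethers chromatin to the lamina, rose by 0.73. Histone genes gave 2 higher and 6 lower of 25. The variant H2AZ1 fell by 0.87 and SLBP, which binds histone messages, by 0.76, H1-10 rose by 0.58, and the damage-marking variant H2AX fell by 0.67. The call of H2AX was lost without shBAP1 #2 replicate 2 or 3 or shControl replicate 1 or 3, at log2 changes of -0.66 to -0.57. With 1 array left out, the higher count of 2 for histones was 1 without shBAP1 #1 replicate 1, shBAP1 #2 replicate 1, 2 or 3 or shControl replicate 1 or 3, and the lower count of 6 for histones was 3 without shControl replicate 1.

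Partners of BAP1 gave 2 higher and 4 lower of 15. BARD1 and BRCA1, which form a ubiquitin ligase and count among replication-linked repair genes too, fell by 1.38 and 1.20. ASXL2, a cofactor of BAP1's activity, fell by 0.62, though 1 of its 5 further probe sets was called higher and 3 lower. KDM1B, a histone demethylase, rose. KDM1B read 6.08, 6.01 and 6.34 in shControl and 7.56, 7.40 and 7.82 in shBAP1 #2. The change was 1.45 (SE 0.15, adjusted p = 4.37e-05), and -0.30 with shBAP1 #1 was not called, a difference of 1.75 (adjusted p = 1.10e-05). Among fits of 8 arrays, the higher count of 2 for BAP1 partners was 1 without shBAP1 #1 replicate 1, shBAP1 #2 replicate 1, 2 or 3 or shControl replicate 1 or 3.

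Polycomb genes, whose complexes ubiquitinate H2A or methylate H3, gave 8 higher and 10 lower of 29. CBX2 fell by 1.32 and EZH2, the methyltransferase, by 1.23. EZH2 read 7.68, 7.41 and 7.91 in shControl and 6.67, 6.29 and 6.37 in shBAP1 #2. SUZ12, its partner, fell by 0.84, and CBX6 rose by 0.61. CBX2 and EZH2 were not called with shBAP1 #1 and differed between the hairpins (adjusted p = 1.92e-04 and 1.38e-04), while for SUZ12 the difference was -0.02 (adjusted p = 0.91). None of the 3 further probe sets of CBX2 was called. By left-out array, the higher count of 8 for Polycomb was 4 without shBAP1 #2 replicate 2, and 5 without shBAP1 #2 replicate 3 or shControl replicate 1 or 2. HOX genes, which Polycomb complexes silence in other tissues, gave 2 higher and 5 lower of 24. HOXB6, HOXC10 and HOXC9 fell by 1.03, 0.85 and 0.52, and HOXB2 rose by 0.35. Leaving out single arrays, the higher count of 2 for HOX genes was 1 without shBAP1 #1 replicate 1, shBAP1 #2 replicate 2 or 3 or shControl replicate 1 or 2, and the lower count of 5 for HOX genes was 3 without shControl replicate 1.

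The machinery that RNA interference itself uses gave 6 higher and 5 lower of 14. The Argonaute partner genes TNRC6C and TNRC6A rose by 1.22 and 0.45, and the Argonaute gene AGO4 by 0.76. Only 1 of 6 further probe sets of TNRC6C and 2 of 5 of TNRC6A were called higher. All controls of TNRC6C lay below the level of the median probe set (5.44). LIN28B, which blocks maturation of the microRNA let-7, fell. LIN28B read 9.91, 10.16 and 9.77 in shControl and 7.86, 7.85 and 8.12 in shBAP1 #2. The change was -2.001 (SE 0.11, adjusted p = 2.97e-06), alike in the 3 replicates, and -1.91 with shBAP1 #1.

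**Figure D3:**
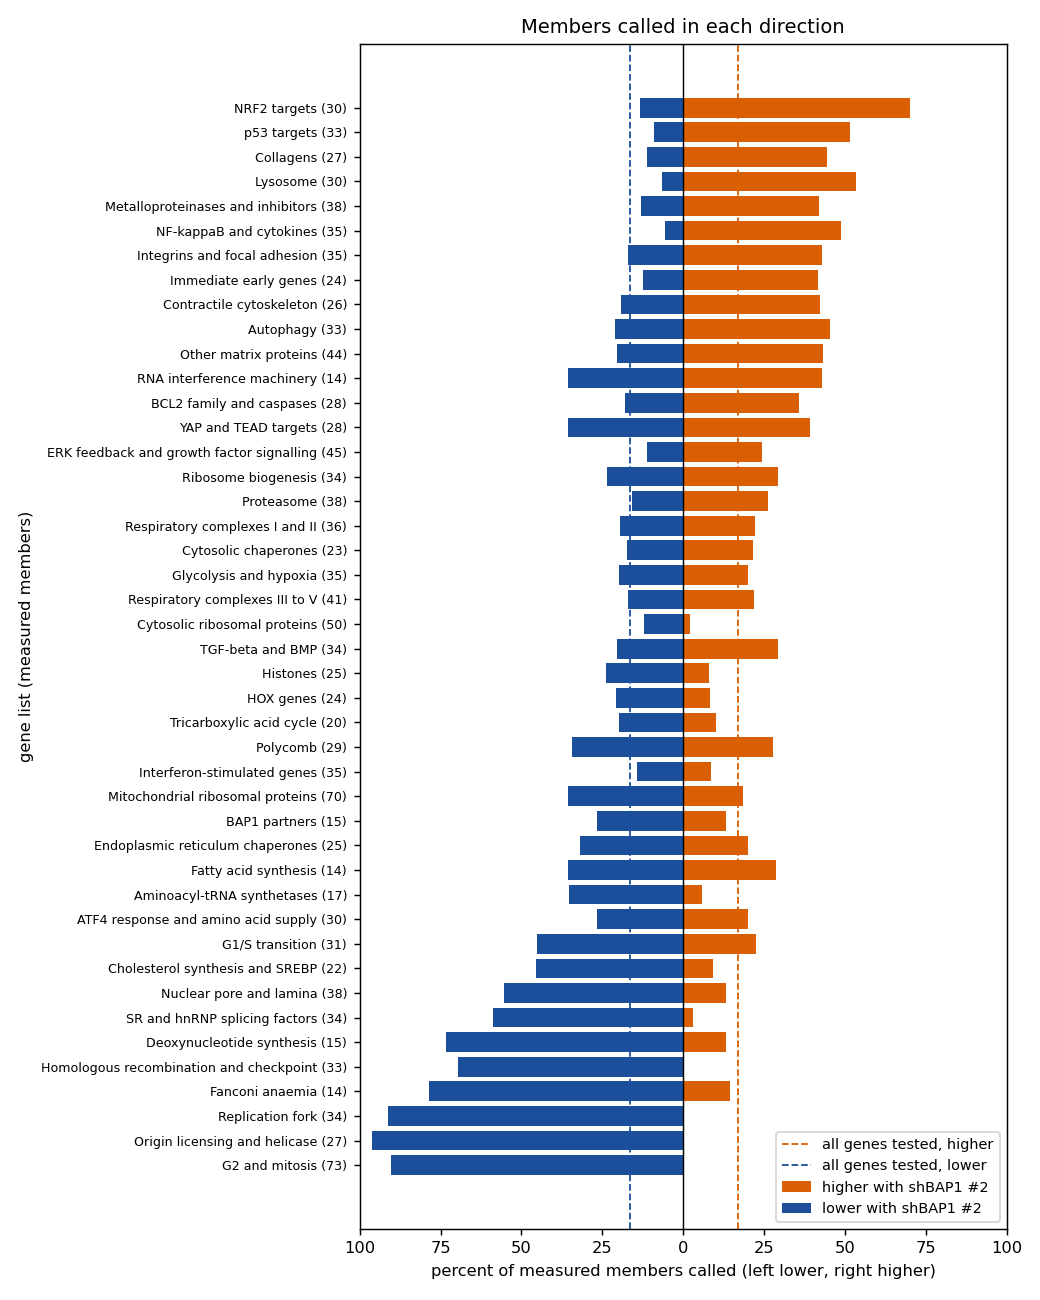
Bars give the percentage of measured members of each list that were called lower (left, blue) or higher (right, orange) with shBAP1 #2, and dashed lines give 16.5% and 16.9%, the shares over all genes tested. Licensing, fork and mitosis lists reach above 90% on the left, and NRF2 targets 70% on the right, while energy metabolism lists lie near the lines.

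Across the lists the shortfall of replicate 1 was uneven. It was plain in mitosis (-0.60 against -1.35 and -1.25), recombination (-0.47 against -0.88 and -0.84) and dNTP synthesis (-0.18 against -0.40 and -0.38). Raised lists showed it too, such as p53 targets (0.15 against 0.39 and 0.26) and collagens (0.10 against 0.20 and 0.28). Other matrix proteins (0.07 against 0.18 and 0.17) and immediate early genes (0.10 against 0.27 and 0.21) were alike. The shortfall was smaller for lysosome genes (0.25 against 0.29 and 0.33) and NRF2 targets (0.34 against 0.40 and 0.47). It was small or absent for integrins (0.21 against 0.24 and 0.19) and the contractile cytoskeleton (0.18 against 0.18 and 0.18). In cholesterol synthesis the medians were -0.21, -0.22 and -0.30. This contrast between lists was not tested. Without replicate 1 the mitosis list had 68 lower members at a median of -1.27, and the NRF2 list 19 higher at 0.45.

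**Figure D4:**
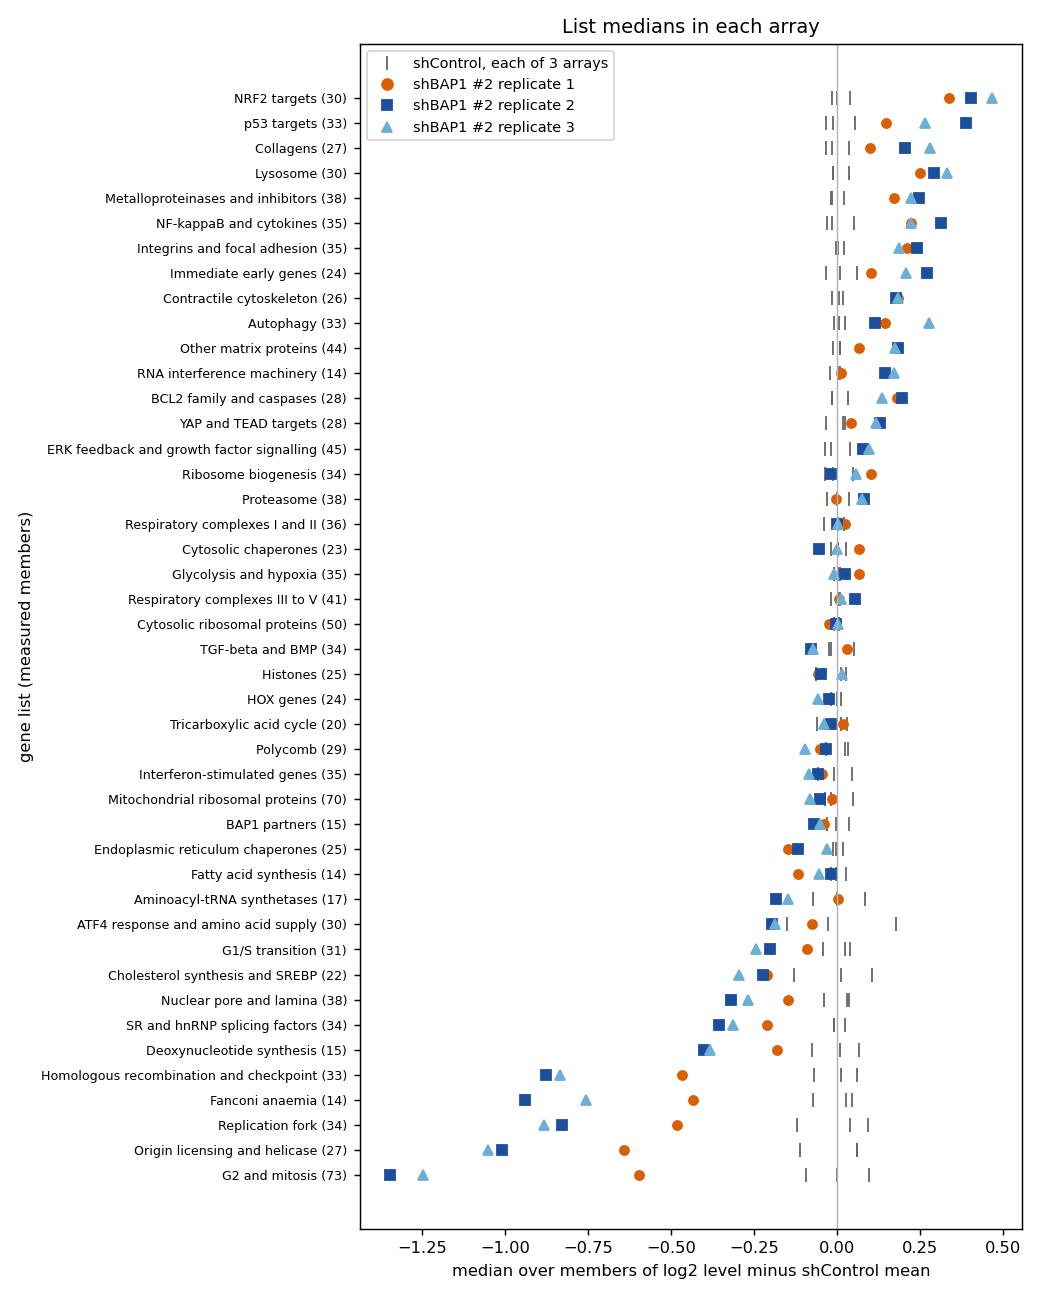
Each row is a gene list with its number of measured members, and each symbol the median over members of 1 array's log2 level minus the control mean. Replicate 1 (orange circles) lies to the right of replicates 2 and 3 in the lowest rows, most of all in mitosis. It lies somewhat to the left of them for NRF2 targets and near them for integrins.

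Some single genes set replicate 1 apart. In SYNE1, a giant nuclear envelope protein gene, SYNE1 read 8.35, 7.37 and 8.32 in shControl and 7.75, 5.26 and 5.43 in shBAP1 #2. Replicate 1 falls among the controls, so the groups overlap, and the change was -1.86 (SE 0.60, adjusted p = 0.0336). The call of SYNE1 was lost without shBAP1 #2 replicate 2 or 3 or shControl replicate 1 or 3, with the mean of its probe sets and in the fit of the 6 arrays alone, at log2 changes of -1.86 to -0.54. SYNE1 rose with shBAP1 #1, by 2.11. TENM2, a teneurin of cell contacts, overlapped likewise. TENM2 read 8.41, 7.97 and 8.40 in shControl and 8.27, 6.53 and 6.62 in shBAP1 #2. The change was -1.12 (SE 0.38, adjusted p = 0.041). The call of TENM2 was lost without shBAP1 #1 replicate 1, 2 or 3, shBAP1 #2 replicate 2 or 3 or shControl replicate 1, 2 or 3 and in the fit of the 6 arrays alone, at log2 changes of -1.27 to -0.82. In ZNF853 replicate 1 was at 6.95 and the others at 5.16 and 5.18, and in ST6GALNAC5, a sialyltransferase gene, at 7.79 against 6.15 and 6.02. EXO1 was the fifth gene on this side. In the other direction replicate 1 was lowest in IL23A, an interleukin subunit gene, at 7.34, 8.29 and 8.18 against controls of 6.34 to 6.53, a rise of 1.52. The ribosomal RNA precursor RNA45SN5 read 8.89, 9.74 and 9.64, against 7.75, 8.05 and 7.78 in shControl, and rose by 1.56, while it changed by -1.18 with shBAP1 #1. CCDC69 rose by 0.80 and CYP2S1, a cytochrome P450 gene, by 0.68. The call of CYP2S1 was lost without shBAP1 #2 replicate 2 or 3 or shControl replicate 1, at log2 changes of 0.53 to 0.61. BIK, a death gene of the BCL2 family, was not called, with replicate 1 at 7.03 below the others at 7.90 and 7.87 and controls of 7.78, 8.002 and 7.16. These 10 genes were chosen for replicate 1, so its place in them is a description.

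Both hairpin comparisons share the 3 control arrays, so their values are given side by side. Against shControl, shBAP1 #1 called 5058 genes (25.6%). Between the hairpins 6860 genes differed (34.7%), 3382 higher (17.1%) and 3478 lower (17.6%) with shBAP1 #2. Over all genes 13% were higher and 12.6% lower with shBAP1 #1. The lists lowered with both hairpins included licensing (20 of 27 lower with shBAP1 #1, median -0.59), fork (19 lower and 2 higher of 34) and recombination (17 lower of 33). They also included SR and hnRNP splicing factors (13 lower and 2 higher of 34, median -0.21) and nuclear pore and lamina genes (14 lower and 2 higher of 38, median -0.20). In the direct test 12 licensing genes were lower with shBAP1 #2 and 3 higher, and 14 fork genes were lower and 1 higher. The p53 list leaned higher with both (18 higher and 2 lower with shBAP1 #1), and direct tests split 8 higher to 10 lower. Other raised lists also leaned higher with shBAP1 #1. Collagens gave 13 higher and 1 lower of 27 there, and other matrix proteins 17 and 4 of 44. Metalloproteinases and inhibitors gave 14 and 6 of 38, and lysosome genes 13 and 5 of 30. Direct tests gave 5 higher and 8 lower with shBAP1 #2 for collagens, and 13 and 8 for lysosome genes. They gave 7 and 12 for other matrix proteins, and 10 and 10 for metalloproteinases. NF-kappaB genes gave 7 higher and 4 lower of 35 with shBAP1 #1, and integrin genes 6 and 6 of 35. For integrin genes 16 were higher with shBAP1 #2 than with shBAP1 #1 and 3 lower.

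**Figure D5:**
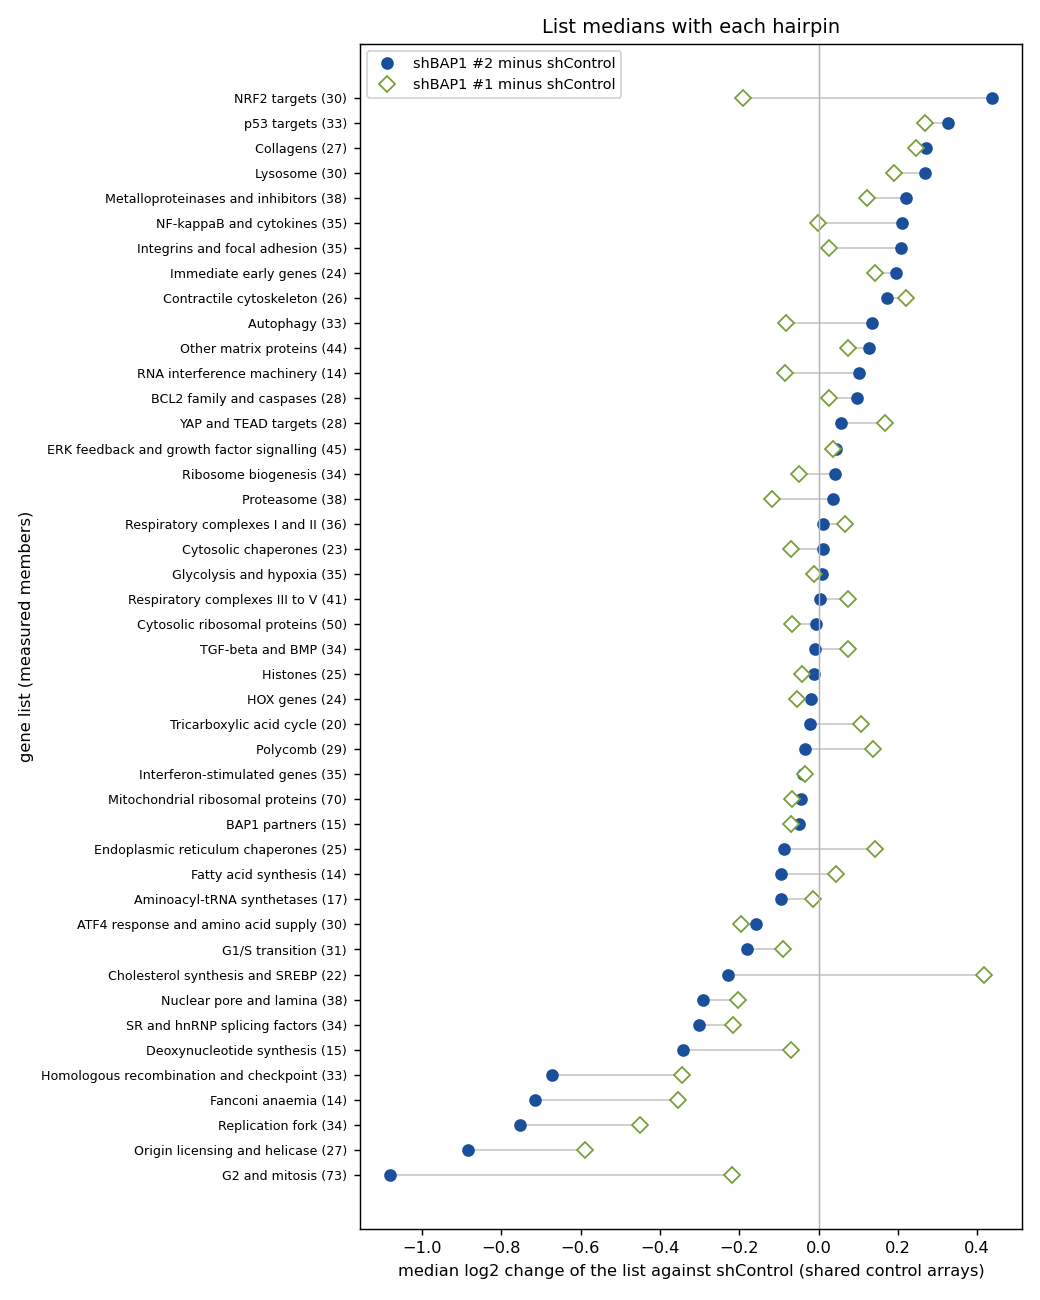
Median log2 change of each list against shControl, with filled circles for shBAP1 #2 and open diamonds for shBAP1 #1, which share the control arrays. The widest gaps are in mitosis (-1.08 and -0.22), cholesterol synthesis (-0.23 and 0.42) and NRF2 targets (0.44 and -0.19).

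Of the 193 genes chosen for naming 128 had further probe sets, and in 33 of them none was called in the same direction. Besides those noted beside their values, these were HPCAL4, SHOC1, SLC40A1, E2F5, CEBPG, EIF2AK3, PDIA4, HMGCS1, ATG3, COL6A2, IFIT2, IFI44, NDUFA10, NDUFS4, COX10, IDH2, RPL36, RPL18, PSMD11, SRSF6, HOXB6, AGO4, SYNE1, ZNF853, ST6GALNAC5 and IL23A. Their changes rest on the brightest probe set alone. In other genes only some further probe sets were called in the same direction. Such genes included ID4 (1 of 4), PDGFRA (1 of 3), RRP12 (1 of 4), SQSTM1 (2 of 4), FGFR1 (3 of 6) and CFLAR (5 of 13).

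The labelled cell type was set against marker lists. Of osteoblast-lineage markers 7 of 14 measured had a level above that of the median probe set, of mesenchymal markers 12 of 15, of epithelial 7 of 15, of neuronal 10 of 15, of haematopoietic 3 of 11 and of endothelial 1 of 10. Osteoblast-lineage markers were higher in 3 of 14 and lower in 0. SPP1, osteopontin, rose by 1.93 and TNFRSF11B, osteoprotegerin, by 0.56. ALPL, the alkaline phosphatase, rose by 1.18 from 4.29 to 4.52 in the controls, below the level of the median probe set (5.44), to 5.34 to 5.79. RUNX2 was not called, and SP7, the osteoblast factor osterix, lay below that level in all 6 arrays (4.71 to 4.83 in shControl and 4.66 to 4.78 with shBAP1 #2). Mesenchymal markers were higher in 3 of 15 and lower in 3. The hyaluronan receptor CD44 rose by 0.76 and N-cadherin, CDH2, by 0.59, while the calcium-binding protein gene S100A4 fell by 1.20, endoglin, ENG, by 0.50 and THY1, a surface glycoprotein, by 0.47. Epithelial keratins KRT18 and KRT8 fell by 0.87 and 0.79 and EPCAM by 0.64. Epithelial markers were lower in 4 of 15 and higher in 0, and their mean level ranged from 6.18 to 6.23 in the controls and from 5.92 to 6.01 with shBAP1 #2. Neuronal markers were higher in 3 of 15 and lower in 5, with NEFL up by 1.10 and RBFOX3 down by 0.97. Haematopoietic markers were higher in 1 of 11 (LCP1, by 0.92) and lower in 1. Endothelial markers were higher in 1 of 10 (ERG, by 1.24, from controls below the median probe set) and lower in 1 (PECAM1, by 0.73). RNA quality was read from ACTB, whose 3' probe set exceeded its 5' probe set by 0.47, 0.49 and 0.51 in the controls and 0.46, 0.39 and 0.39 in shBAP1 #2. Replicate 1 was nearest to the controls in this measure too, and the part of RNA quality in the results was not tested. For GAPDH this gap lay between -0.06 and -0.02 in the controls and between -0.04 and -0.03 in shBAP1 #2.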

How the data were processed

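Total RNA of 9 samples of U2OS cells was read on arrays of 54675 probe sets. The deposited log2 values had been made by the authors with RMA, which corrects background, normalizes by quantiles and summarises probes, per the submitters' processing notes, whose version is not given in the sources used here. No scanner files were used here. The platform annotation gave the names, and in it 41097 carried 1 symbol, 1801 several and 11777 none, and only the first were read. Array medians lay between 5.40 and 5.45, and 0 pairs of arrays were identical. Depth does not apply to arrays, and the number of arrays limits the precision.

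The groups were fitted together in R 4.3.3 by the lmFit and eBayes functions of limma 3.58.1 (9 arrays, 6 residual and 4.33 prior degrees of freedom), with Benjamini-Hochberg adjustment over 19775 genes. On simulated data the fit called 48% of 50 genes changed by 0.5, 93% of 100 changed by 1 and 100% of 50 changed by 2 (log2). The simulation changed 200 of 19775 genes, with the same shift in each shBAP1 #2 array. In the data 33.4% of genes were called and replicate 1 changed less, so these rates do not describe this comparison. The rule for named genes took the 12 most raised and 12 most lowered called genes no dimmer than the median probe set whose groups do not overlap. It took 3 called members per list in the direction with more calls and 1 in the other, and 5 genes on each side where replicate 1 stands furthest from both other replicates. The 44 gene lists, markers and motifs were chosen with earlier results of these data known, so none is independent support. Sequences are from RefSeq, and 15384 of the genes tested had a promoter there. Of the named genes, 128 have further probe sets, 9 are read by probe sets that can match unrelated transcripts and 68 by ones shared among transcripts of a gene or family. Alternatives were cyclic loess between arrays, leaving out dim genes, a trended and robust eBayes, the mean of all probe sets, the 6 arrays alone, the replicate number as a block, a minimum change of 1.5-fold and leaving out each array. BAP1 was not analysed here, and 1 other gene that the rule names is not reported here.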

Additional observations from a re-analysis of the deposited data

How the results depend on the processing

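The count of 6600 called genes was 6601 with cyclic loess, 6417 without dim genes, 6646 with a trended and robust test, 6447 with the mean of probe sets, 6308 in the 6 arrays alone, 5456 to 6885 with an array left out, and 2678 at a minimum of 1.5-fold. With the replicate block it was 6548. Same-numbered arrays deviated with correlations from -0.21 to 0.22, so the numbers were not taken to pair samples. Of 193 named genes 11 lost their call under at least 1 of 15 alternatives, and 0 reversed. The 15 do not include the 1.5-fold minimum. At that minimum further named genes would not be called, such as HSPH1 (1.29-fold), COX10 (1.27-fold) and RPL12 (1.19-fold). A list median is given here where it moved by at least the larger SD, over the 3 arrays of shBAP1 #2 or of shControl, of the list's median. Without dim genes these were 0.14 for the BCL2 family, 0.25 for other matrix proteins, 0.28 for metalloproteinases, 0.29 for immediate early genes, 0.15 for ERK feedback and 0.45 for NF-kappaB. With the mean of probe sets they were 0.019 for fatty acid synthesis, a turn of sign from -0.094, 0.17 for metalloproteinases, 0.13 for the contractile cytoskeleton and for integrins, 0.15 for NF-kappaB, -0.024 for cytosolic ribosomal proteins, -0.22 for splicing factors, -0.060 for histones and -0.20 for the nuclear pore. Within that SD, the mean of probe sets still took homologous recombination from -0.67 to -0.45, the replication fork from -0.75 to -0.60, G2 and mitosis from -1.08 to -0.93, Fanconi anaemia genes from -0.71 to -0.61 and collagens from 0.27 to 0.19. Leaving out dim genes took collagens to 0.34 and autophagy genes from 0.13 to 0.20. The causes were not tested. With an array left out, medians ran from 0.060 to 0.14 for the BCL2 family, -0.16 to -0.063 for endoplasmic reticulum chaperones, 0.25 to 0.31 for lysosome genes, 0.18 to 0.31 for collagens, 0.19 to 0.26 for metalloproteinases, 0.16 to 0.19 for the contractile cytoskeleton, 0.15 to 0.24 for integrins, -0.076 to 0.037 for TGF-beta genes, 0.052 to 0.13 for YAP genes, 0.043 to 0.11 for ERK feedback, 0.15 to 0.28 for NF-kappaB, -0.13 to 0.0074 for histones, -0.085 to -0.045 for BAP1 partners, -0.074 to -0.033 for Polycomb and -0.049 to -0.012 for HOX genes. Counts of list members that moved by over 1.5 times were, with a trended test, 7 lower chaperones for 4 and 2 higher cytosolic ribosomal proteins for 1. With the replicate block they were 1 higher cholesterol gene for 2, 4 lower NF-kappaB genes for 2, also without dim genes and in the 6 arrays alone, and 2 lower tricarboxylic acid cycle genes for 4, also in the 6 arrays. With the mean of probe sets they were 3 lower fatty acid genes for 5, 5 higher tricarboxylic acid cycle genes for 2, 5 higher Polycomb genes for 8 and 3 lower HOX genes for 5. With cyclic loess they were 1 higher histone gene for 2, also in the 6 arrays, and 1 higher BAP1 partner for 2, and without dim genes or in the 6 arrays 1 higher HOX gene for 2. Signal near background limits the 7027 genes below the median level.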
